A study of Mus musculus with 8 samples.

Results

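Numbered Zfp genes, which encode zinc finger proteins and carry a symbol of Zfp followed by digits alone, were compared between TNFR2+ and TNFR2- Tregs. The members were chosen by their measured level, a mean of at least 100 normalized counts over the 8 libraries, and this kept 156 of the 339 numbered Zfp genes among the 20172 genes in the table. The level that chose them is given as a description only. The rule does not use the contrast between the populations, but the family was picked for study with earlier results of these data known. Libraries were made from Tregs sorted from the spleens of female Foxp3CreYFP mice (genotype Foxp3 YFP-cre), in which Cre and YFP are made from the Foxp3 locus, and all 8 libraries carry this allele. TNFR2 (encoded by Tnfrsf1b) is a receptor for TNF, and the sort split the YFP+ cells of young adult mice into 4 TNFR2+ and 4 TNFR2- samples. The labels number the replicates but do not tie them to separate mice, so the p-values measure the spread between these samples. Summed values were 9576920 to 11492762 normalized counts per library, from an estimated 9100000 to 12110000 reads.

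The gate was visible in its own transcript. Tnfrsf1b had 3148, 1840, 2631 and 2383 normalized counts in the TNFR2+ libraries and 1266, 1563, 1177 and 1277 in the TNFR2- libraries, with no overlap. Foxp3, the lineage factor of Tregs, had 3126 ± 219 in TNFR2+ and 3664 ± 316 in TNFR2- Tregs (SD, n = 4 each; log2 fold change -0.23, limma adjusted p = 0.232). The 7 Treg markers (Foxp3, Il2ra, Ctla4, Ikzf2, Cd4, Cd3e and Cd3g) summed to 29804 to 34226 in TNFR2+ and 22295 to 27479 in TNFR2- libraries. Of these, 3 (Ctla4, Ikzf2 and Cd3e) were called higher and none lower, 42.9% against 11.2% of genes with a mean of at least 100. Il2ra, like Foxp3, had a lower mean in TNFR2+ Tregs (2742 against 3482), and the other 5 had a higher one. The populations also differed in state: the 4 proliferation markers (Mki67, Top2a, Birc5 and Ccnb1) summed to 3608 to 6871 in TNFR2+ and 543 to 1453 in TNFR2- libraries. In sorted bulk RNA, fewer cells of a state and less RNA per cell cannot be told apart, and the part of this list in the results on the members was not tested.

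A classical zinc finger is a short fold in which a pair of cysteines and a pair of histidines (C2H2) hold a zinc ion, and arrays of such fingers read DNA sequence. Many mouse Zfp proteins also carry a KRAB domain, which recruits the co-repressor Trim28 and, through it, the histone methyltransferase Setdb1 and the proteins of heterochromatin. This class is best known for silencing retroelements and for keeping genomic imprints. Other proteins named Zfp do different work, from binding mRNA to ubiquitin transfer and ribosome assembly.

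A search of the annotated coding sequences found the C2H2 pattern in 150 of the 156 members, with a median of 9 fingers and up to 36 in Zfp142. The KRAB pattern was found in 62 members, which had a median of 11 fingers against 7 in the other 94. One member, Zfp783, is annotated as a transcribed pseudogene and the other 155 as protein-coding. The name therefore joins unlike proteins, and the coding sequences of a pair of members that passed the test show it. Each stretch below spans a pair of neighbouring fingers on the sense strand, from the GENCODE transcripts of GRCm38, with the codons of the 8 zinc-binding residues in capitals. In Zfp652 the stretch is 153 bases (coding bases 898 to 1050) and the capitals are cysteine, cysteine, histidine and histidine in each finger. In Zfp36 it is 174 bases (coding bases 301 to 474), and each finger has 3 cysteines and 1 histidine (CCCH), the fold with which this protein grips AU-rich mRNA.
Zfp652: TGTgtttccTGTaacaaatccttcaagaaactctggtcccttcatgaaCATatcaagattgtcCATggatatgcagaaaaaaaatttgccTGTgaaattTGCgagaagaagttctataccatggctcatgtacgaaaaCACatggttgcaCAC
Zfp36: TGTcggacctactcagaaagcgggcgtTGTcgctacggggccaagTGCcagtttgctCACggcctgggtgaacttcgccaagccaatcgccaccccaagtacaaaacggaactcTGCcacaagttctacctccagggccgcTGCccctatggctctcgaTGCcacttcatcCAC

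As a family the members differed little between the populations by their median, and by more in their mean level. Their median log2 fold change (TNFR2+ over TNFR2-) was -0.06, against -0.01 for the 8324 tested genes with a mean of at least 100, a difference of -0.05. The size of that difference was not firm. With the minimum mean changed for the members and for the genes beside them, it was -0.0128 at 50 (10245 genes) and -0.0249 at 200 (6266 genes). It was -0.0936 with letter suffixes added and -0.102 with quantile normalization. Leaving out in turn TNFR2+ replicate 4, TNFR2- replicate 1, TNFR2- replicate 2 and TNFR2- replicate 4 gave -0.084, -0.0863, -0.0826 and -0.0882. Of the 156 members 91 were on the negative side (58.3%), against 51% of those 8324 genes. The mean log2 level of the members was 8.22, 8.12, 8.17 and 8.17 in the TNFR2+ libraries and 8.24, 8.27, 8.24 and 8.31 in the TNFR2- libraries. All 4 TNFR2+ libraries were thus below all 4 TNFR2- libraries, by 0.09 on average, with an SD between libraries of 0.04 within each group. Over all genes with a mean of at least 100 the same mean was 8.83 ± 0.01 in TNFR2+ and 8.80 ± 0.01 in TNFR2- Tregs (SD, n = 4 each). Taken against that mean, the members were at -0.66 ± 0.05 in TNFR2+ and -0.54 ± 0.04 in TNFR2- libraries, a difference of -0.12. The TNFR2+ libraries (-0.71 to -0.60) did not overlap the TNFR2- libraries (-0.58 to -0.49) on this measure. The sign of the family's own shift depended on the scaling: with every library scaled to the same total of deposited values, the median of the members was 0.06 and that of all these genes 0.12, and the difference between them was again -0.05. The members took 0.728% ± 0.039 of the summed counts in TNFR2+ and 0.736% ± 0.041 in TNFR2- libraries.

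**Figure D1:**
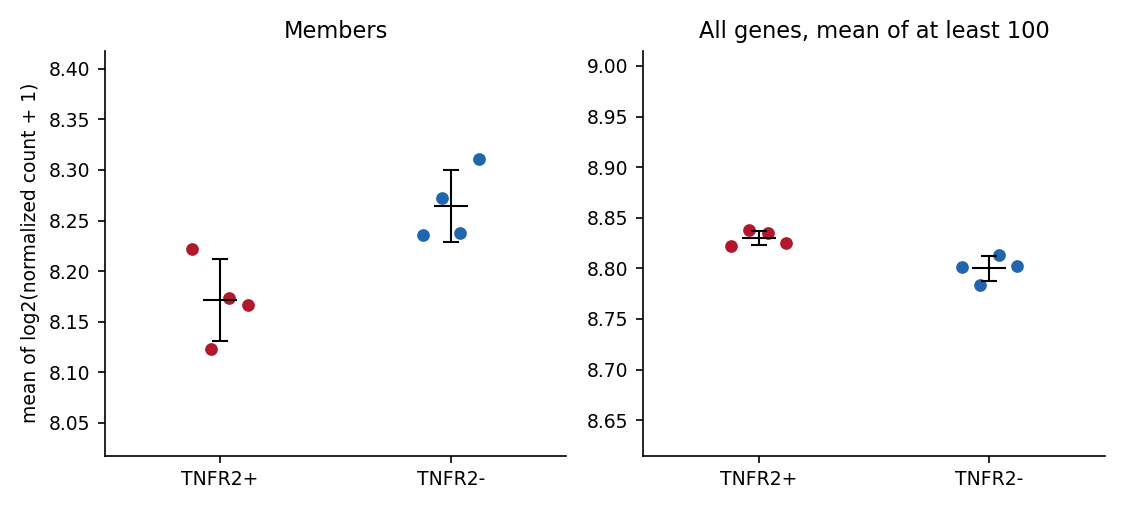
Mean of log2(normalized count + 1) in each of the 8 libraries (points) for the 156 members on the left and all tested genes with a mean of at least 100 on the right, with group mean and SD (n = 4). The members' means are 8.12 to 8.22 in TNFR2+ and 8.24 to 8.31 in TNFR2- libraries, while the means over all genes are slightly higher in TNFR2+; the 2 panels span equal ranges of the log2 scale, and the axes do not start at 0.

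The spread of the fold changes was narrower in the family than among genes at large. Its SD was 0.38 against 0.60, and 4 members (2.56%) against 589 of the 8324 genes (7.08%) had a log2 fold change beyond 1 in either direction. The bulk of the values differed less: the middle 50% ran from -0.33 to 0.16 for the members and from -0.29 to 0.29 for these genes. The median size of the log2 fold change, without its sign, was 0.24 and 0.29. The full range over these genes was -8.13 to 6.46. The lowest log2 fold change was that of Zfp747 (-1.28) and the highest that of Zfp367 (1.1, SE 0.43), which did not pass the test (adjusted p = 0.141) and is named here after its value was seen.

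**Figure D2:**
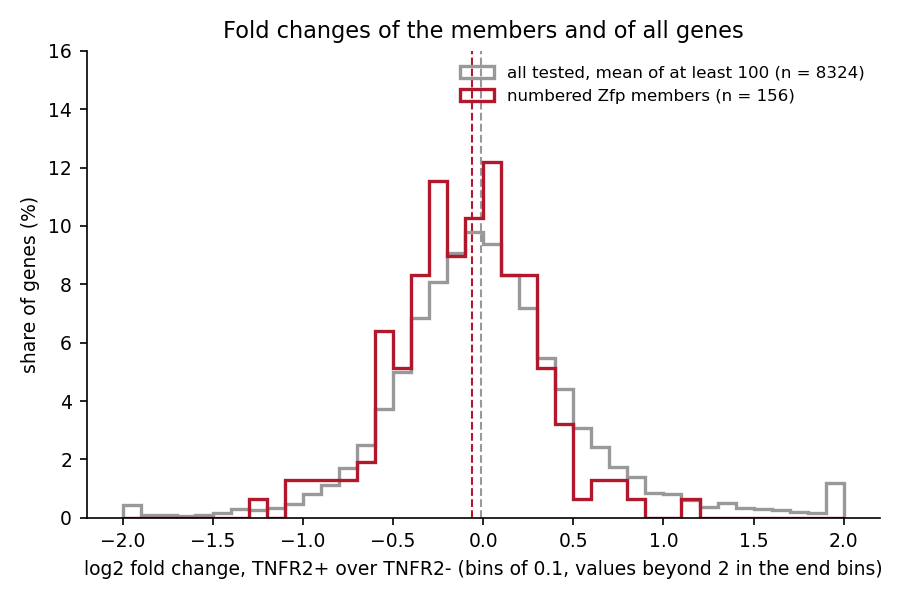
Share of genes (%) per bin of log2 fold change (TNFR2+ over TNFR2-) for the 156 members (red) and the 8324 tested genes with a mean of at least 100 (grey), with dashed lines at the medians of -0.06 and -0.01. The members' outline is narrower (SD 0.38 against 0.60) and lacks the long tails.

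By member, 6 of 156 passed an adjusted p of 0.05 (3.85%), while 11.2% of the genes with a mean of at least 100 and 7.91% of all 13990 tested genes did. Zfp747, Zfp652, Zfp318, Zfp687 and Zfp36 were lower in TNFR2+ Tregs, and Zfp706 was higher. That is 5 lower members (3.21%) against a background of 5.15% lower, and 1 higher member (0.641%) against 6.08% higher. At an unadjusted p of 0.05 there were 27 members (17.3%, 22 lower and 5 higher) against 28.3% of the genes. In 13 members all TNFR2+ libraries lay below all TNFR2- libraries and in 2 all lay above, that is 8.33% and 1.3%, where the shares over the genes with a mean of at least 100 were 9.5% and 9.86%. The share of non-overlapping falls was thus near the background, and that of non-overlapping rises was under it.

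**Figure D3:**
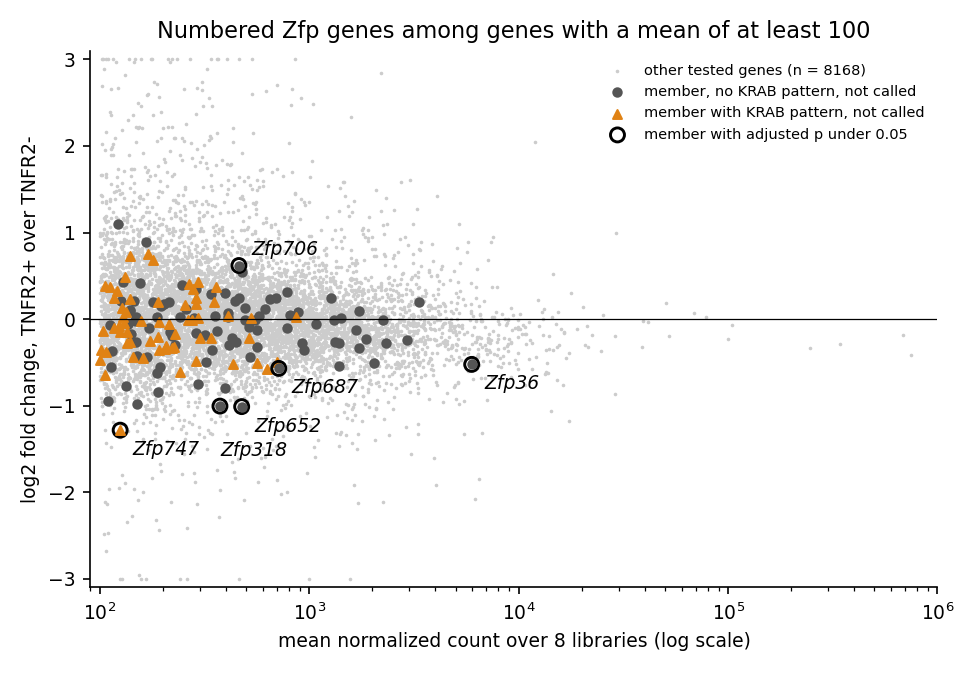
Log2 fold change (TNFR2+ over TNFR2-) against the mean normalized count over the 8 libraries (log scale) for the members with (orange triangles) and without (dark points) the KRAB pattern, over all other tested genes with a mean of at least 100 (grey, values beyond 3 drawn at 3). Rings mark the 6 members with an adjusted p under 0.05; 5 lie below 0 and Zfp706 above.

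Zfp36 (chr7:28376784-28380253, minus strand) had the highest level of all members. It encodes tristetraprolin, which binds AU-rich elements of inflammatory mRNAs, that of Tnf among them, and speeds their decay. Its normalized counts were 4303, 5793, 5010 and 4435 in the TNFR2+ libraries and 6700, 7099, 8484 and 5857 in the TNFR2- libraries. Every TNFR2+ library was below every TNFR2- library, though the highest of the former and the lowest of the latter were close. The log2 fold change was -0.52 (SE 0.13, limma adjusted p = 0.0282, exact permutation p = 0.0286, the smallest that 4 against 4 can give), 1.44-fold higher in TNFR2- Tregs. The call on Zfp36 was lost with quantile normalization (-0.35, adjusted p = 0.144) and with libraries scaled to equal totals (-0.39, adjusted p = 0.093). Tnf itself had 245 ± 74.5 normalized counts in TNFR2+ and 333 ± 99.2 in TNFR2- Tregs (SD, n = 4 each; adjusted p = 0.419).

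The close relatives of Zfp36 carry a letter in the symbol, fall outside the rule and are named after their values were seen. Zfp36l2 was also lower in TNFR2+ Tregs, at 6769 ± 455 against 9059 ± 751 normalized counts (log2 fold change -0.42, adjusted p = 0.0196). Zfp36l1 went the other way, at 5820 ± 216 against 3975 ± 396 (0.55, adjusted p = 0.00506). These proteins share the CCCH fold and bind AU-rich mRNA, and of the 3 genes 2 were lower and 1 higher in TNFR2+ Tregs.

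Zfp747 (chr7:127372537-127376050, minus strand), a KRAB member with 9 fingers, showed the largest fall. Its counts were 66.6, 70.2, 54.0 and 98.9 in the TNFR2+ libraries and 163, 132, 180 and 234 in the TNFR2- libraries and did not overlap. This is a log2 fold change of -1.28 (SE 0.30, adjusted p = 0.0187), or 2.43-fold higher in TNFR2- Tregs. The gene is among the lower-expressed members, with rank 140 of 156 by mean. Its mean was 72.4 in TNFR2+ and 177 in TNFR2- Tregs, so it met the minimum mean through the population where it was higher.

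Zfp652 (chr11:95712673-95835115, plus strand) encodes a DNA-binding repressor that works with the co-repressor CBFA2T3. It had 317, 341, 208 and 393 normalized counts in the TNFR2+ libraries and 510, 774, 477 and 780 in the TNFR2- libraries (log2 fold change -1.01, SE 0.24, adjusted p = 0.020). The TNFR2- libraries fell into a lower and a higher pair, and both pairs were above every TNFR2+ library. Cbfa2t3, outside the rule for named genes, was near the floor in most libraries. It had 0, 2.92, 0 and 3.44 normalized counts in the TNFR2+ libraries and 12.2, 1.53, 1.55 and 93.1 in the TNFR2- libraries. Zfp652 overlaps Abi3 on the other strand. The library kit keeps strand, but whether the quantification used it is not stated in the sources used here.

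Zfp318 (chr17:46383731-46420920, plus strand) is known for the expression of IgD in mature B cells. Counts of 245, 326, 292 and 151 in the TNFR2+ libraries stood against 402, 465, 523 and 589 in the TNFR2- libraries (log2 fold change -1.01, SE 0.25, adjusted p = 0.0234). B cell transcripts were scarce in all libraries: 4 of 5 markers had a value, summing to 82.5 to 119 in TNFR2+ and 25 to 173 in TNFR2- libraries. Their part in the difference of Zfp318 was not tested.

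Zfp687 (chr3:95006590-95015448, minus strand) joins Zfp592 and Zmynd8 in a chromatin complex. Its values were 547, 586, 648 and 521 in the TNFR2+ libraries and 862, 799, 872 and 877 in the TNFR2- libraries (log2 fold change -0.57, SE 0.14, adjusted p = 0.0245). Its partners did not pass the test: Zfp592 had 1528 ± 435 and 1923 ± 504 (adjusted p = 0.373), and Zmynd8, outside the rule for named genes, 2709 ± 185 and 3577 ± 505 (SD, n = 4 each; log2 fold change -0.39, adjusted p = 0.0675). Zfp687 overlaps Pi4kb on the other strand, and its call was lost with libraries scaled to equal totals (-0.44, adjusted p = 0.0758).

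Zfp706 (chr15:36997027-37007773, minus strand) was the only member called higher. It encodes a very small protein of 76 residues with 1 finger, known for a part in the exit of embryonic stem cells from self-renewal. It had 499, 545, 647 and 540 normalized counts in the TNFR2+ libraries and 363, 321, 342 and 427 in the TNFR2- libraries, without overlap (log2 fold change 0.62, SE 0.17, adjusted p = 0.0404). This was the call with the largest adjusted p, and it was lost when genes with a mean of at least 1 were fitted (adjusted p = 0.054), with a replicate block (adjusted p = 0.0629) and without an intensity trend (adjusted p = 0.083).

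**Figure D4:**
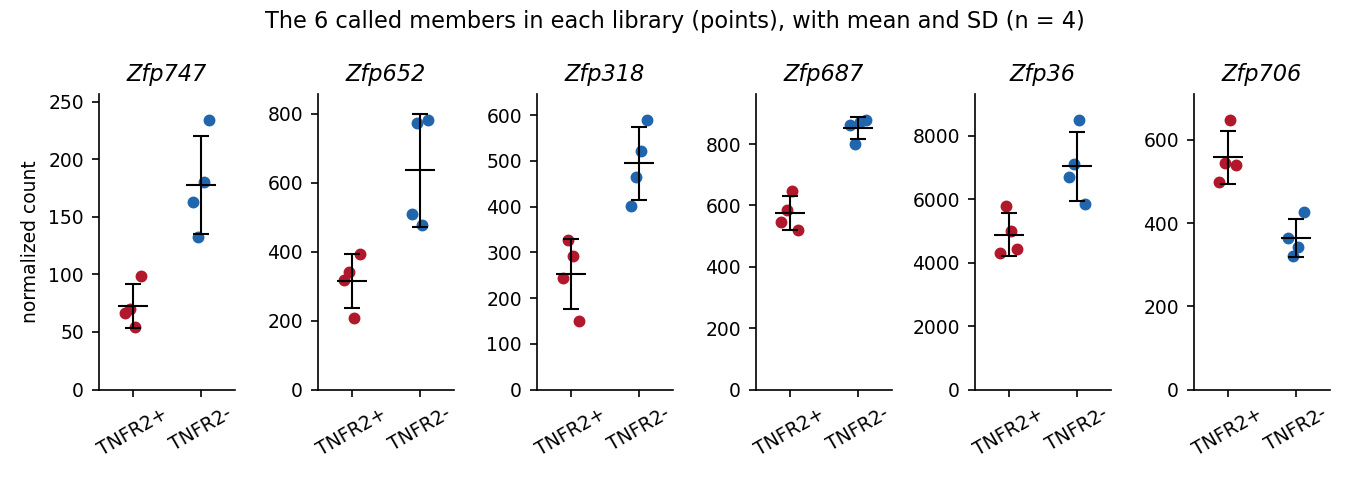
Normalized counts of the 6 called members in each TNFR2+ (red) and TNFR2- (blue) library, with mean and SD (n = 4); every axis starts at 0. In each panel the groups do not overlap, with the TNFR2+ libraries lower in the first 5 panels and higher for Zfp706.

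None of the 6 had a near-identical transcript elsewhere in the annotation (95% identity over 50% of the length), while 6 other members did. All 6 kept their direction in every alternative tried. Fewer passed when a library was left out: 1 of the 6 without TNFR2+ replicate 1, 2 without TNFR2+ replicate 3, TNFR2- replicate 2 or TNFR2- replicate 4, 3 without TNFR2+ replicate 2, TNFR2+ replicate 4 or TNFR2- replicate 1, and 4 without TNFR2- replicate 3. Other members passed in 3 of these fits, Zfp523 and Zfp672 without TNFR2- replicate 1, Zfp346 without TNFR2- replicate 3 and Zfp644 without TNFR2- replicate 4. Of the 8 fits that left out a library, Zfp652 and Zfp318 passed in 5 each, Zfp747 in 4, Zfp687 in 3, Zfp36 in 2 and Zfp706 in 1. Without an intensity trend in the variances Zfp747 alone passed, and 4.00% of all genes with a mean of at least 100.

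Among other members that act on RNA and ribosomes, none passed the test. Zfp622, which works in the maturation of the large ribosomal subunit, had 2113 ± 271 in TNFR2+ and 2547 ± 295 in TNFR2- Tregs (log2 fold change -0.27, adjusted p = 0.240). Zfp598, the ubiquitin ligase that senses collided ribosomes, had 548 ± 19.9 and 558 ± 76.4 (adjusted p = 0.968). Zfp326, a part of the DBIRD complex that couples transcription and splicing, had 498 ± 63.0 and 623 ± 60.1 (adjusted p = 0.249). It overlaps the gene Gm43817 on the same strand, so its reads may have been split. The RNA-binding Zfp106 had 1714 ± 329 and 1997 ± 256 (adjusted p = 0.390; SD, n = 4 throughout). With Zfp36 this group of 5 held 1 call, where 11.2% of all genes with a mean of at least 100 were called, and its log2 fold changes ran from -0.52 to -0.02.

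Of 8 members that partner chromatin complexes 2 were called, Zfp652 and Zfp687, both lower, and the group's median log2 fold change was -0.35. The share over all genes with a mean of at least 100 was 11.2%, and the members were put into role groups with results known. Zfp644, a partner of the G9a and GLP histone methyltransferases, lay just outside the threshold. It had 1893, 1662, 1306 and 1845 normalized counts in the TNFR2+ libraries and 2824, 2338, 2346 and 2016 in the TNFR2- libraries, which do not overlap (log2 fold change -0.51, SE 0.15, adjusted p = 0.0529). Zfp644 overlaps the gene Gm43421 on the same strand, so reads may have been split between them. Zfp335, needed for T cell maturation and tied to a histone methyltransferase complex, had 824 ± 73.8 and 1055 ± 112 (adjusted p = 0.147). Zfp281, a repressor known from stem cells, had 1595 ± 90.9 and 1747 ± 248 (adjusted p = 0.630). Zfp217, which binds the CtBP co-repressors, had 575 ± 201 and 574 ± 256 (adjusted p = 0.965), and Zfp827 750 ± 15.6 and 641 ± 125 (SD, n = 4 each; adjusted p = 0.399).

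Of 4 members known for guarding the genome 0 were called, where 11.2% of all genes with a mean of at least 100 were. With so few members this count says little about such genes, and the group was set with results known. Zfp638, which brings the HUSH silencing complex to unintegrated retroviral DNA, had 1785 ± 95 and 1677 ± 158 normalized counts (log2 fold change 0.09, adjusted p = 0.692). Zfp809, which silences murine leukaemia virus DNA, had 126 ± 36.3 and 97.1 ± 29.4 (0.37, adjusted p = 0.552). Zfp445, a keeper of imprints, had 525 ± 46.7 and 525 ± 80.0 (adjusted p = 0.987). Zfp568, a repressor of Igf2, had 138 ± 33.8 and 184 ± 10.4 (-0.45, adjusted p = 0.318). The first of these values in each pair is that of TNFR2+ Tregs, and all are mean and SD with n = 4.

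Of the members tied to cell division and signalling, Zfp207, a spindle assembly factor, had 1366 ± 139 in TNFR2+ and 1159 ± 135 in TNFR2- Tregs (SD, n = 4 each; log2 fold change 0.24, adjusted p = 0.323). Zfp91, a ubiquitin ligase described to act on NIK in the non-canonical NF-kappaB pathway downstream of TNF receptor family members, had 2234, 2311, 2250 and 2150 in the TNFR2+ libraries and 2163, 2408, 2056 and 2362 in the TNFR2- libraries. These groups overlap fully, at a log2 fold change of -0.0048 (SE 0.11, adjusted p = 0.987).

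**Figure D5:**
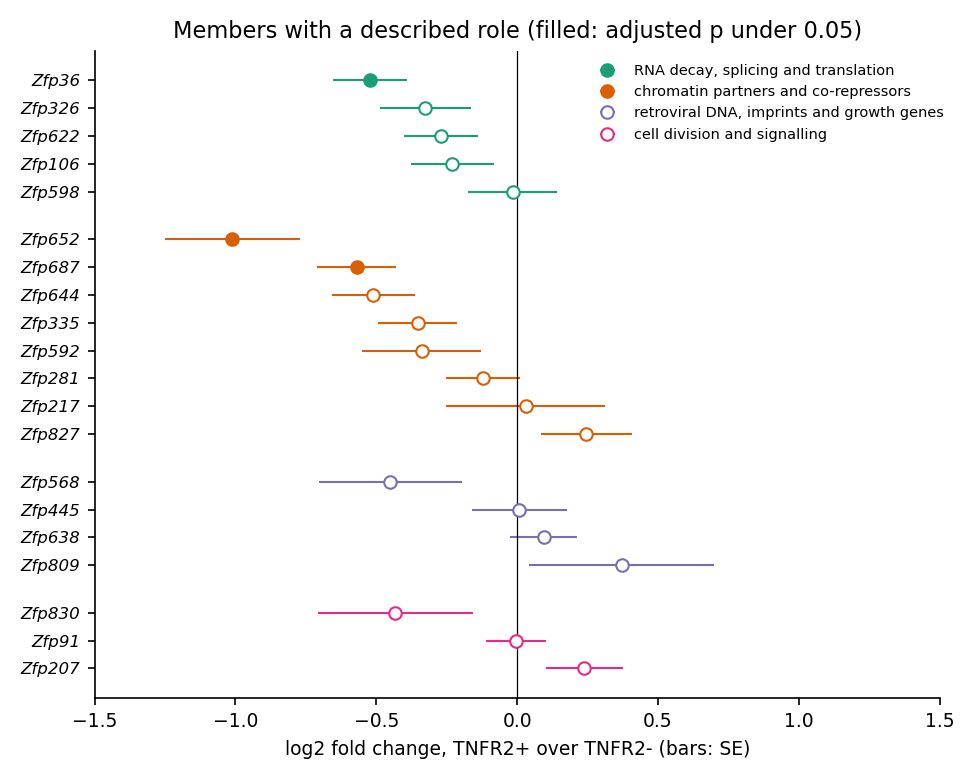
Log2 fold change (TNFR2+ over TNFR2-) with its SE for 20 members with a described role, by role; filled points have an adjusted p under 0.05. Zfp36, Zfp652 and Zfp687 are filled, all below 0, and no member of the lower 2 groups is.

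The other most abundant members differed little. Zfp831, the second in level, had 3558 ± 307 in TNFR2+ and 3120 ± 355 in TNFR2- Tregs (SD, n = 4 each; log2 fold change 0.19, adjusted p = 0.358). Zfp292 had 2713, 2692, 2833 and 2554 against 3285, 3301, 3068 and 3064, a small gap without overlap that did not pass the test (-0.24, SE 0.10, adjusted p = 0.176). Among the remaining members of the role list (Zfp131, Zfp148, Zfp266, Zfp407, Zfp608, Zfp609, Zfp746, Zfp830 and Zfp932), log2 fold changes ran between -0.43 (Zfp830, adjusted p = 0.380) and 0.41 (Zfp266, adjusted p = 0.372), and none passed. Zfp932, at a mean of 101, shares a near-identical transcript with another gene, so its reads may have been split.

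The minimum mean cut through a continuous range. Just inside it were Zfp7 (mean 100.1), Zfp932 (101) and Zfp970 (103), and just outside Zfp595 (99.7), Zfp511 (98.9) and Zfp950 (98.2). In 14 members the mean of 1 population was under 100, among them Zfp747 (72.4 in TNFR2+) and Zfp367 (82.0 in TNFR2-), the lowest and highest by log2 fold change. These 14 met the minimum through the population where they were higher, and they are part of the counts given for the members.

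Members with and without the KRAB pattern had like medians. The 62 with the pattern had a median log2 fold change of -0.06 with 1 call (Zfp747, 1.61%). The 94 others had a median of -0.06 with 5 calls (5.32%), where 11.2% of genes with a mean of at least 100 were called. The pattern is a fixed spelling that can miss KRAB domains, so the 94 may include KRAB proteins. Mean log2 levels per library were 7.59 ± 0.05 and 7.66 ± 0.03 with the pattern and 8.56 ± 0.05 and 8.66 ± 0.04 without it, in TNFR2+ and TNFR2- Tregs (SD, n = 4 each). Members with the pattern were lower in level, with a median mean of 190 normalized counts against 384. Across the 156 members the rank correlation of the log2 fold change was -0.04 with the number of fingers, -0.05 with the mean and -0.01 with transcript length, given as descriptions over genes of the same 8 libraries.

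The share of members called was under that of all genes at each level of expression. With means of 100 to 200, 1 of 61 members (1.64%) was called against 6.61% of all genes. With means of 200 to 400 it was 1 of 42 (2.38%) against 8.16%, and from 400 up 4 of 53 (7.55%) against 15.1%. By direction, called falls were near the share of all genes in the lower 2 bands (1.64% against 1.80% and 2.38% against 2.28%). From 400 up they were 5.66% against 8.27%. Called rises were 0% against 4.81%, 0% against 5.88% and 1.89% against 6.81%. The medians in these bands were -0.07, -0.03 and -0.09 for the members and 0.06, 0.05 and -0.06 for all genes. The median SE was close in the same bands, at 0.32, 0.24 and 0.17 for the members and 0.32, 0.24 and 0.17 for all genes.

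A broad list of 27 genes holds the co-repressors of KRAB proteins together with other chromatin and transcription factors. All 27 were tested, and 3 were higher and 1 lower in TNFR2+ Tregs, in all 14.8% against 7.91% of all genes tested. With a mean of at least 100 it was 4 of 25, where 11.2% of all such genes were called. The scaffold Trim28 had 1363 ± 264 in TNFR2+ and 1562 ± 173 in TNFR2- Tregs (SD, n = 4 each; adjusted p = 0.455), and the methyltransferase Setdb1 487 ± 38.4 and 527 ± 92.4 (adjusted p = 0.787). The rises were Uhrf1, which guides maintenance DNA methylation in dividing cells (log2 fold change 2.89, SE 0.36), Cbx5, which encodes the heterochromatin protein HP1 alpha (1.33, SE 0.18), and the deacetylase Hdac2 (0.93, SE 0.21). Chd3, a remodeller of the NuRD complex, was lower (-0.52, SE 0.11, adjusted p = 0.0101). The proliferation markers, higher in the same TNFR2+ libraries, moved with the rises, and their part was not tested.

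Other C2H2 families were set beside the members. Of 17 tested Klf and Ikzf genes, which include regulators of lymphocyte state, 9 were called, 7 lower and 2 higher in TNFR2+ Tregs, which is 52.9% against 7.91% of all genes tested. Klf2, a factor of T cell quiescence, had 2783 ± 583 against 10138 ± 2969 normalized counts (log2 fold change -1.84), while Ikzf2, which encodes Helios, had 9763 ± 1407 against 5275 ± 1806 (0.95; SD, n = 4 each). Of 54 tested Zbtb, Zscan and Zkscan genes, 2 were called, Zkscan8 higher and Zbtb11 lower. That is 3.70%, beside 6 of all 296 tested numbered Zfp genes (2.03%). With a mean of at least 100 it is 2 of 40 (5.00%), beside the 3.85% of the members. The differences between these shares were not tested.

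Many members sit in runs of related genes along the chromosome. With neighbours no more than 500 kb apart, 53 of the 156 members fell into 11 runs of at least 3, and 33 of the 53 had the KRAB pattern. In the run at chr6:47835661-48445825 (Zfp398, Zfp282, Zfp212, Zfp783, Zfp956, Zfp777, Zfp746 and Zfp467), 7 of 8 members were on the negative side, with a median log2 fold change of -0.43 and a range of -0.77 to 0.03. The largest run, 11 members at chr17:21383748-22867134, had 6 on the negative side and a median of -0.05. No member of either run passed the test, and Zfp783 overlaps Zfp956 on the same strand, so reads of this pair may have been split between them. Over all 156 members 58.3% were on the negative side, and over the genes with a mean of at least 100 it was 51%. Of those genes 11.2% were called. The runs are named after their values were seen, and others went the other way. The run of Zfp113, Zfp157 and Zfp68 had 0 of 3 members on the negative side.

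RefSeq promoter windows of GRCm38 (250 bases before to 50 after a start) were at hand for 128 of the 156 members, 156 windows in all. The GC box GGGCGG, a motif read by Sp and Klf proteins, was in 57.7% of them on either strand, against 64.9% of 8010 windows of genes with a mean of at least 100 and 35.7% of all 32851. The ETS core CCGGAA was in 37.8% against 30.3% and 14.9%, and the CCAAT box in 46.8% against 36.9% and 37.4%. A match is a description of letters, and matches of different motifs on opposite strands can share letters. Windows of Zfp687 and Zfp318, both lower in TNFR2+ Tregs, are shown as examples. Zfp687 has 2 windows, from different starts, and their letters differ: over the full 300 bases the upstream window (chr3:95015408-95015707) holds 5 CCAAT boxes and 0 GC boxes and the downstream window (chr3:95015189-95015488) 0 CCAAT and 6 GC boxes. Shown are the 200 bases from 250 to 51 before each start, on the gene's strand, with whole matches within the stretch in capitals: 4 CCAAT boxes in the upstream Zfp687 window (chr3:95015508-95015707, minus strand), 2 GC boxes in the downstream one (chr3:95015289-95015488, minus strand) and a GC box on the other strand at Zfp318 (chr17:46383516-46383715, plus strand).
Zfp687, upstream start: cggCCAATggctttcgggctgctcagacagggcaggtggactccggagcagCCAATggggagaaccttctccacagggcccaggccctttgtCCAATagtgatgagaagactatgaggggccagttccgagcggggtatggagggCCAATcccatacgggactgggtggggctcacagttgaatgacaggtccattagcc
Zfp687, downstream start: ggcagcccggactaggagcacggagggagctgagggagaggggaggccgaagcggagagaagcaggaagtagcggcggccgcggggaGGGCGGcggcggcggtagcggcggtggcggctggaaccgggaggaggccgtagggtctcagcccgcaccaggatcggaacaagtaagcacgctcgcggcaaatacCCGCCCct
Zfp318: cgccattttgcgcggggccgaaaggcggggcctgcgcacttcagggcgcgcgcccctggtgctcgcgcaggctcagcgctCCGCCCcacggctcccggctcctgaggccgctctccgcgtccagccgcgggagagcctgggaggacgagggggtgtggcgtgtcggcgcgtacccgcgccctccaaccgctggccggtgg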

How the data were processed

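RNA from sorted TNFR2+ and TNFR2- Tregs was sequenced as stranded total RNA libraries. The authors trimmed reads with Trim Galore, ran salmon 1.3.0 against Ensembl transcripts of GRCm38, and scaled the gene counts by DESeq2 1.28. The deposited signal is the normalized count per gene, linear and not whole, so no count model was fitted. The step from transcripts to genes is not given in the sources used here.

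Symbols came from GENCODE M21 (20008 of 20172 identifiers). Genes with a mean of at least 10 (13990) were fitted on log2(value + 1) with limma 3.58.1 in R 4.3.3 (intensity trend, two-sided, Benjamini-Hochberg over all genes tested, threshold 0.05), with all 8 libraries and no covariate. Fold changes are on the log2(value + 1) scale and understate changes of low genes. Exact two-sided permutation tests used 70 relabellings. The fit was tested on simulated data. Named genes were the called members (at most 10 each way), the 5 most abundant, 3 on each side of the minimum mean, and 31 members of a list of 35 genes with described roles, with Tnfrsf1b and Foxp3. Near-identical copies were sought with blastn 2.17.0. A marker list is not reported here. The members and lists were chosen with earlier results of these data known. Alternatives covered pseudocount, filters, scaling, moderation, weights, a replicate block and single libraries.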

Additional observations from a re-analysis of the deposited data

Results flagged for a closer look

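Among 72 sets of 4 values (the named members and the mean level of the family in each population), 2 had a value far from the other 3 by Dixon's ratio, where chance alone flags about 1 in 20. Zfp131 had 360 normalized counts in TNFR2- replicate 3 against 483, 499 and 503 in the other TNFR2- libraries. Zfp598 had 445 in TNFR2- replicate 2 against 604, 578 and 605. Neither gene passed the test, and the sets of the 6 called members held no such value.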

How the results depend on the processing

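The 6 called members kept their direction under all alternatives, and the difference between the members' median and that of all genes stayed negative in all of them. With a minimum mean of 50 in place of 100, for the members and the genes beside them alike, the median of the members was -0.0173 and the difference -0.0128. With letter suffixes added, 2 members were higher, the median was -0.103 and the difference -0.0936. Quantile normalization gave a median of -0.117 and a difference of -0.102, and centring on the median gene a median of -0.107. Fitting genes with a mean of at least 1 left 0 members higher, and no intensity trend left 0 higher and 1 lower, 1 in all. Scaling to equal totals, added after the sums were seen to differ, gave 2 members higher and 3 lower and a median of 0.0647; it moved the median of all genes from -0.01 to 0.12 and the calls among them to 8.84% higher and 3.27% lower, from 6.08% and 5.15%. With a library left out, 1 to 5 members passed, 0 to 1 higher and 1 to 5 lower. The cause of these changes was not tested.

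The replicate block gave 7 members, 0 higher and 7 lower, with Zfp644 (adjusted p = 0.0444) and Zfp236 added and Zfp706 lost (adjusted p = 0.0629). Deviations of same-numbered samples from their group means correlated at 0.00, -0.02, -0.08 and 0.10, none over 0.1, and not every sample correlated best with its own number, so the numbers were not taken as a pairing.

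Members with a fold change near 0 changed sign. Zfp91 was at 0.0102 with TMM scaling, 0.117 with quantile normalization and 0.125 with equal totals, Zfp148 at 0.00862, 0.0426 and 0.124, Zfp217 at -0.0117 after centring, and Zfp445 at -0.00414 with quantile normalization, -0.0356 after centring and -0.0223 with array weights. With equal totals Zfp281 was at 0.00798, Zfp598 at 0.114, Zfp608 at 0.11 and Zfp746 at 0.0399. With a library left out, Zfp91 ranged from -0.0465 to 0.0295, Zfp932 from -0.778 to 0.112, Zfp148 from -0.0603 to 0.0473, Zfp217 from -0.185 to 0.305, Zfp445 from -0.103 to 0.0788, Zfp598 from -0.121 to 0.0263 and Zfp608 from -0.253 to 0.253.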

Other observations

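Of the numbered Zfp genes under the minimum mean, 140 had a mean of 10 to 100 and were tested, and 43 had a mean under 10. In the 140, 0 passed limma's adjusted p of 0.05 and 16 (11.4%) an unadjusted p of 0.05 (11 higher and 5 lower in TNFR2+ Tregs). Over all 13990 tested genes, most of them higher in level, the shares were 7.91% and 23.0%. The shares over all genes with means of 10 to 100 are not given here, so these counts are a description. The median log2 fold change of the 140 was 0.10, opposite in sign to that of the members, with a median SE of 0.53 against 0.25, so that low members give little precision.

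Of the role list, Zfp683, which encodes Hobit, a factor of tissue-resident lymphocytes, was listed at 0 in 7 of 8 libraries and at 12.4 normalized counts in the other. Zfp90 had means of 34.4 in TNFR2+ and 35.9 in TNFR2- Tregs.

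The nuclear RNAs Malat1, Neat1, Kcnq1ot1 and Tug1 each had a lower mean in TNFR2+ Tregs, and none passed the test. Snhg11, on the same list, had a higher one (26.4 against 22.2 normalized counts, log2 fold change 0.27, adjusted p = 0.832), and Norad is not analysed here. Malat1 had 217554 ± 30353 and 274893 ± 48493 normalized counts and Neat1 2544 ± 738 and 3704 ± 633 (SD, n = 4 each; log2 fold changes -0.33 and -0.57, adjusted p = 0.167 and 0.088). Mitochondrial transcripts took 9.15% to 12.1% of the counts in TNFR2+ and 10.5% to 12% in TNFR2- libraries. The part of these RNAs in the family's shift was not tested.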
